A study of Mus musculus with 9 samples.

Results

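The 3 libraries of mouse pancreatic islets cultured with inflammatory cytokines and nanoparticles were compared with the 3 libraries of islets cultured with the cytokines alone. These 6 samples, of 9 in all, were taken by the group words in their titles, and the remaining 3 libraries, from untreated islets, serve as the reference level. All islets were primary islets of wild-type C57bl/6 mice, and total RNA was sequenced. Inflamed islets were exposed for 48 hours to IL-1beta, TNF-alfa and IL6. Particle islets had PD-G-MSNPs added to the same cytokine mix. The series title describes the particles as mesoporous silica coated with polydopamine, made to release nutrients, and the labels give neither the nutrient nor the dose. Control islets received neither agent. The stated aim was to examine protection of cytokine-exposed islets by the particles, in function and in immune pathways. Islets with particles and no cytokines were not analysed here. The labels do not say whether the replicates of a group came from separate animals or islet preparations, so each p-value reflects only how far these samples differ among themselves, possibly for technical reasons.

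Islets hold insulin-producing beta cells, the other hormone cells and a small population of resident macrophages. IL-1beta and TNF-alfa act through the transcription factor NF-kB, which switches on chemokine genes and the nitric oxide synthase gene Nos2 in beta cells, while beta cell genes such as Mafa and Slc2a2 are lost. Interferon-type genes, including those of MHC class I, respond in part through IRF1. Macrophages take up particles by phagocytosis, make the complement protein C1q and carry lipid and antibody receptors on their surface.

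The total count per library was 17832949 to 25302772 in particle islets, 19394440 to 55865759 in inflamed islets and 23064836 to 32101145 in controls. Levels are given as CPM, counts per 1e6 on library totals scaled by TMM factors, and values are listed in the order of replicates 1, 2 and 3. On the first principal component of log2(CPM + 0.5), which held 66.81% of the variance, the controls lay at -96.1, -101.3 and -102, the inflamed libraries at 67.02, 69.36 and 80.63, and the particle libraries at 32.76, -16.36 and 66.02. Particle replicate 2 thus lay nearest to the untreated islets and particle replicate 3 beside the inflamed ones. The islet label held in all 6 libraries: insulin transcripts (Ins1 and Ins2, near-identical paralogs whose reads can be shared) took 18.8%, 13% and 21.2% of counts in inflamed islets and 8.55%, 21.6% and 16.1% with particles. These ranges overlapped (two-sided exact permutation test, p = 0.7).

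None of 17276 genes tested reached an adjusted p under 0.05 by the quasi-likelihood test of edgeR (Benjamini-Hochberg). Thus 0 genes were called (0% of those tested), and the smallest adjusted p was 0.0638. Genes were named by smallest p only among protein-coding genes of at least 5 CPM, without clone names and with separate groups. The 10 lower ones included the macrophage genes C1qc, C1qb, Trem2 and Laptm5, and the 10 higher ones were led by Nrep. At an unadjusted p under 0.05 the edgeR test held 1655 higher and 948 lower genes. DESeq2 called 487 higher (2.82% of 17240) and 296 lower genes (1.72%), and the edgeR fit without particle replicate 3 called 636 and 306. In 1533 genes (8.87%) all 3 particle values lay above all 3 inflamed values, and in 1178 genes (6.82%) all 3 lay below. Without particle replicate 2 these numbers were 2148 and 1725. Taken singly, particle replicate 1 lay above all 3 inflamed values in 30.2% of genes and below them in 27.2%. The shares were 33.5% and 28.6% for particle replicate 2, and 26.4% and 18.8% for particle replicate 3. For scale, the edgeR contrast of inflamed against control islets held 20.7% of genes as higher and 19% as lower. These contrasts share the inflamed libraries, so control values are given below only as levels.

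Macrophage markers had lower values in each of the 3 particle libraries, and of the 36 gene lists examined theirs held the largest share of separated genes. Of 24 markers, 22 passed the filter on low counts and 18 had all 3 particle values below all 3 inflamed values, against 6.82% of all genes; none had all 3 above. The median log2 fold change was -1.39, against 0.0369 over all genes tested. Relative to the mean of the inflamed libraries, the list's median was -1.29, -1.66 and -1.02 in particle replicates 1, 2 and 3, so the 3 libraries lay close together here. DESeq2 called 15 of the 22 lower and 0 higher, against 1.72% and 2.82% of all genes. In bulk RNA, fewer macrophages and less RNA of these genes per macrophage cannot be told apart.

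Among the 10 lower genes with the smallest p, 4 were macrophage markers, and all 4 carry the purine-rich box GAGGAA, on one strand or the other, within 250 bases before to 50 bases after the annotated start. This box is a form of the site of PU.1, the factor encoded by Spi1 that establishes the macrophage lineage, and its GGAA core is shared by all ETS factors. Of 32851 promoter windows of the same length, 28.3% hold the box. It was in 66.7% of the 21 windows of the macrophage markers (17 of 24 genes matched), 64.7% of the 17 windows of the phagocyte uptake receptors and 31% of the 29 windows of the beta cell identity genes. Of the other 6 genes among the 10, 4 had windows, 5 in number, and 0 held the box. The sequences are shown because these genes share both the low particle values and the box, which is in capitals. They are RefSeq windows of build GRCm38.p6, at chr4:136886151-136886450 (C1qb, minus strand), chr4:136892865-136893164 (C1qc, minus strand), chr17:48346151-48346450 (Trem2, plus strand) and chr4:130913066-130913365 (Laptm5, plus strand). A match describes these letters and is no evidence of binding.
C1qb: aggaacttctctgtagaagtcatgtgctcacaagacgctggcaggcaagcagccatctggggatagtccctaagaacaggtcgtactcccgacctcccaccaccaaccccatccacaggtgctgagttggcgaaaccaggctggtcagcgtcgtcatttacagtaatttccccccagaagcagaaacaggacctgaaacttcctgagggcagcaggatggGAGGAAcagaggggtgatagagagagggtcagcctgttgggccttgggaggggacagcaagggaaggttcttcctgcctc
C1qc: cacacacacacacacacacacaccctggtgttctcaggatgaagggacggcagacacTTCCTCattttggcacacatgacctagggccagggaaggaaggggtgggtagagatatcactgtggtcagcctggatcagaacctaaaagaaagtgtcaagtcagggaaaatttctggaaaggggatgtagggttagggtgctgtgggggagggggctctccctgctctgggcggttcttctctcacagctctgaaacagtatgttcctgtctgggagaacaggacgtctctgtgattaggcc
Trem2: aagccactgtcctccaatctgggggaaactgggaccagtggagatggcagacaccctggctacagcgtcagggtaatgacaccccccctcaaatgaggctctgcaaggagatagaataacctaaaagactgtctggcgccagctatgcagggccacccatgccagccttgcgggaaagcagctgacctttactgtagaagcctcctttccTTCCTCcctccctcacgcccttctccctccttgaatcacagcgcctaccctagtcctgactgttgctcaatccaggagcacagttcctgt
Laptm5: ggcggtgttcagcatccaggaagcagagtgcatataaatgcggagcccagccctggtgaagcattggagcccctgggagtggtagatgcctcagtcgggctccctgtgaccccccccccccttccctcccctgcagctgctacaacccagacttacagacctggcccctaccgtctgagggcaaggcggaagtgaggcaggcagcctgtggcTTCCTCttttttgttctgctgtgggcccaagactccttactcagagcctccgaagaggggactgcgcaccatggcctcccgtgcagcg

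C1qc, which encodes a chain of the complement recognition protein C1q (ENSMUSG00000036896, GRCm39 chromosome 4 from 136617115 to 136620376), was at 143, 110.3 and 108 CPM in inflamed and 25.6, 25.3 and 42.1 CPM in particle islets. Particle replicates 1 and 2 lay within the untreated range (33.8, 26.8 and 21 CPM) and replicate 3 above it. The log2 fold change, particle minus inflamed, was -1.96 (standard error, SE, 0.26; edgeR adjusted p = 0.0638, DESeq2 adjusted p = 5.19e-09). C1qb, the neighbouring gene for another chain (ENSMUSG00000036905, chromosome 4 from 136607440 to 136613498), was at 163, 117 and 162 against 40.3, 29.5 and 57.5 CPM (log2 fold change -1.80, SE 0.28). C1qa, the third chain of the same protein, was at 153, 127 and 189 CPM in untreated islets, a range that overlapped the inflamed values of 176, 72.1 and 119 CPM. Its particle values of 46.7, 66.8 and 50.8 CPM lay below those of both other groups. Trem2, a lipid-sensing receptor of macrophages (ENSMUSG00000023992, chromosome 17 from 48653429 to 48661175), was at 21.2, 25.1 and 21.2 against 4.77, 7.35 and 7.98 CPM (log2 fold change -1.75, SE 0.28). Laptm5, a lysosomal membrane protein of blood cells (ENSMUSG00000028581, chromosome 4 from 130640436 to 130663452), was at 54.5, 59.6 and 48.7 against 12.6, 15.7 and 17.7 CPM. In all 5 genes the particle and inflamed values were separate, which for C1qc, C1qb, Trem2 and Laptm5 was part of the rule that chose them.

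**Figure D1:**
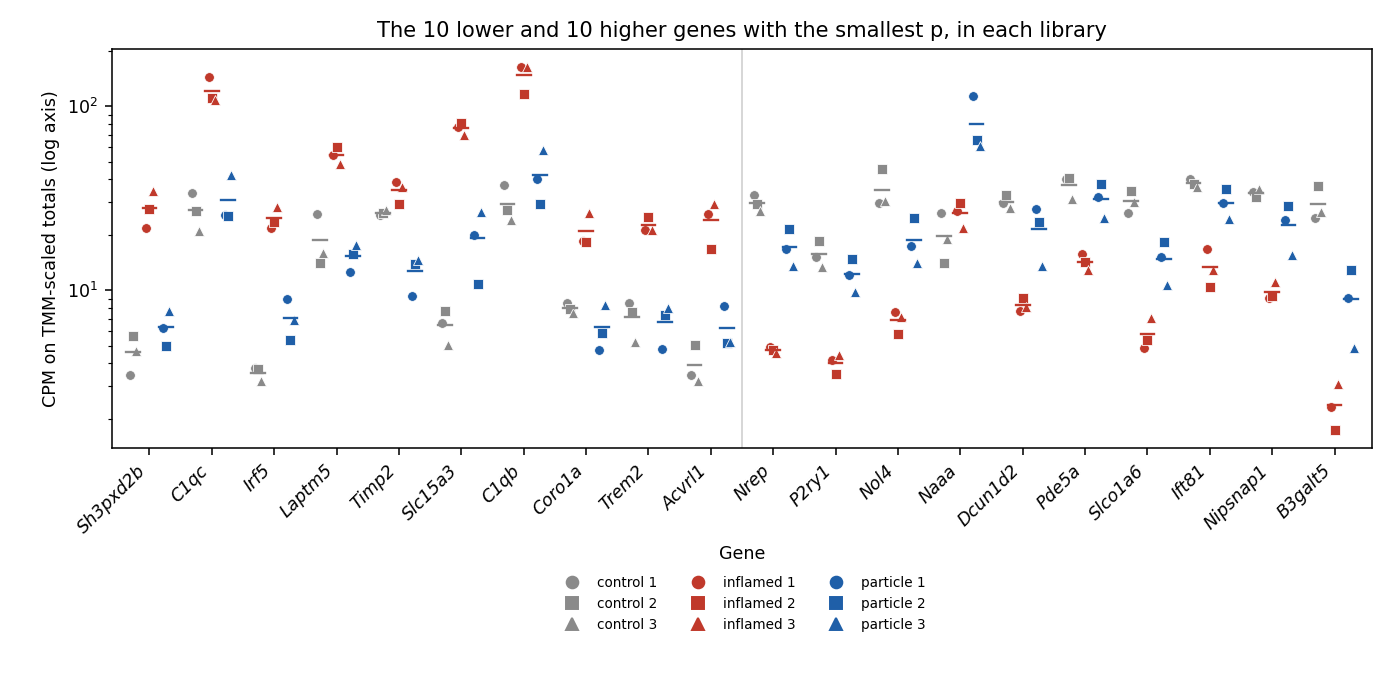
CPM of the 10 lower genes (left of the line) and 10 higher genes (right) with the smallest p, one symbol per library, with a bar at each group mean on a log axis. Particle values (blue) and inflamed values (red) do not overlap in any of these genes, which is part of the rule that chose them, and Naaa is the gene whose particle values of 114, 65.6 and 60.4 CPM lie above both other groups.

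The regulators and signalling parts of the macrophage program had the same order. Spi1, the gene of PU.1, was at 26.9, 21.5 and 25.8 CPM in inflamed and 6.20, 6.23 and 12.7 CPM in particle islets. Csf1r, the receptor for the growth factor that keeps macrophages alive, was at 31.4, 58.8 and 30.7 against 17.9, 13 and 13.6 CPM, though it overlaps Hmgxb3. Tyrobp, the adaptor through which Trem2 signals, was at 40, 29.3 and 49 against 11.1, 13.6 and 17.5 CPM. In all 3 genes the particle libraries lay wholly below the inflamed ones. Adgre1, the F4/80 antigen, overlapped between groups (5.53, 18.3 and 13.7 against 2.81, 2.37 and 8.41 CPM), as did the pan-leukocyte gene Ptprc (4.56, 7.75 and 11 against 2.71, 1.93 and 5.06 CPM). Cx3cr1 is a defining gene of resident macrophages, and its levels of 0, 0.367 and 0 CPM and 0.246, 0.924 and 0 CPM left nothing to compare, against 5.04, 4.83 and 2.51 CPM in untreated islets. The summed level of the 22 markers was 1824 to 2171 CPM in inflamed, 811 to 1025 CPM in particle and 750 to 1020.2 CPM in control islets. As a share of counts the markers took 0.212%, 0.205% and 0.207% in inflamed islets (0.208 ± 0.00354%, SD, n = 3) and 0.0953%, 0.0798% and 0.117% with particles (0.0974 ± 0.0188%). A two-sided exact permutation test gave p = 0.1, the smallest that 3 against 3 samples allow.

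**Figure D2:**
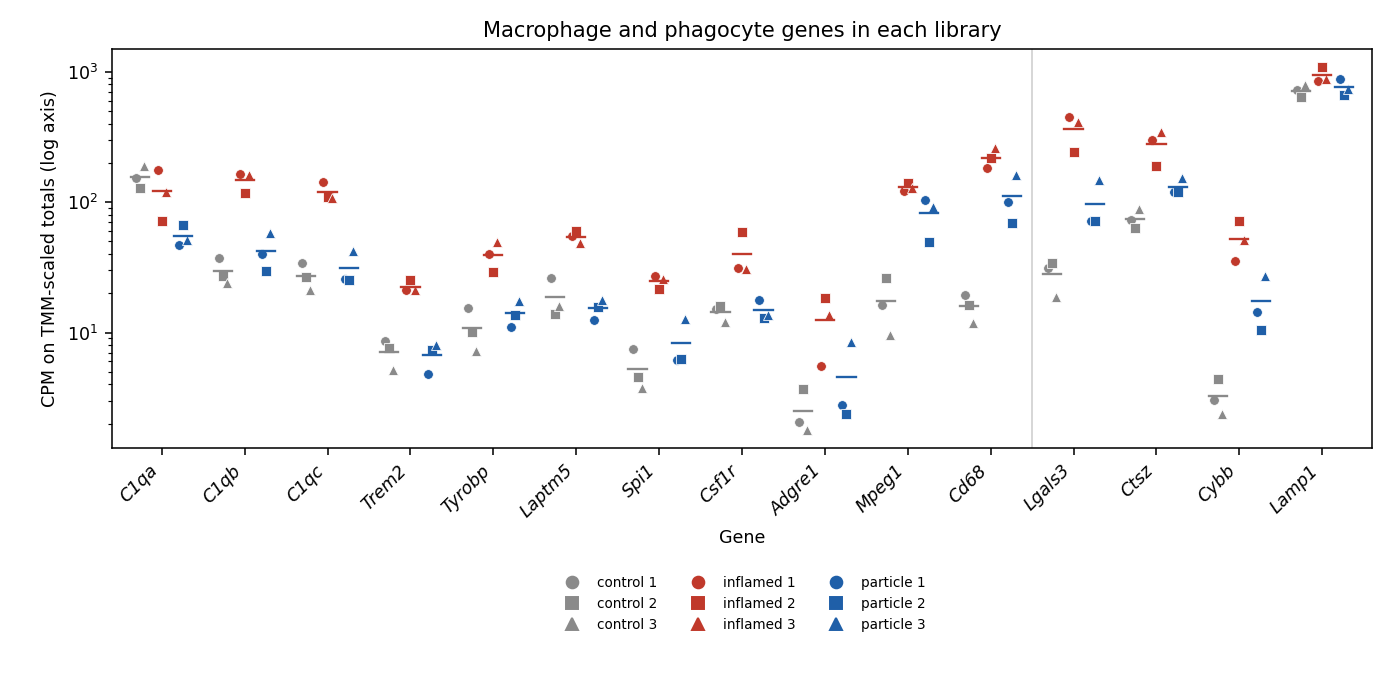
CPM of 11 macrophage markers (left of the line) and 4 genes of the phagosome and lysosome (right) in each library, with group means as bars on a log axis. Particle values lie below inflamed values in each gene except Adgre1 and Lamp1, whose groups overlap.

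Other genes with the smallest p on the low side were Irf5, Sh3pxd2b, Coro1a, Slc15a3, Timp2 and Acvrl1. Irf5, an interferon regulatory factor of myeloid cells, was at 21.9, 23.6 and 28.3 against 8.91, 5.34 and 6.89 CPM. Sh3pxd2b, a scaffold of the invasive podosomes of macrophages and other cells, was at 21.8, 27.6 and 34.6 against 6.25, 4.98 and 7.72 CPM, a log2 fold change of -2.15 (SE 0.28). Coro1a, an actin-binding protein of leukocytes, was at 18.4, 18.3 and 26.4 against 4.73, 5.87 and 8.28 CPM. The inflamed and particle ranges of these 3 genes were separate, which was part of the rule that chose them. Slc15a3, a peptide transporter of the phagosome, was at 77.3, 80.6 and 69.5 against 19.9, 10.8 and 26.6 CPM. Acvrl1, a receptor of the TGF-beta family found on endothelial cells, was at 25.8, 16.8 and 29.5 against 8.22, 5.14 and 5.23 CPM. Timp2, an inhibitor of matrix proteases, had particle values of 9.35, 13.9 and 14.6 CPM, below both the inflamed values of 38.6, 29.3 and 36.6 and the untreated values of 25.5, 26.4 and 27.3 CPM. Irf5, Coro1a and Slc15a3 overlap other expressed genes (Tnpo3, Bola2 and Tmem132a), so part of their counts may belong to those.

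Receptors by which phagocytes take up particles and debris also had lower values, while genes of the lysosome itself were divided. Of 18 uptake receptors 15 were tested. In 8 all particle values lay below the inflamed ones, against 6.82% of all genes, and in 1 all lay above (Stab2, at most 1.13 CPM in any particle library), against 8.87%, with a median log2 fold change of -1.26. Axl, a receptor for dying cells, was at 33.4, 24.7 and 38.3 against 12.3, 7.80 and 11.6 CPM. Fcgr3, an antibody receptor, was at 37, 42 and 46.4 against 12.1, 11.1 and 21.2 CPM, and the scavenger receptor Cd36 was at 69, 93.8 and 70 against 27.8, 13.1 and 46.6 CPM. Particle replicate 2 was the lowest of the 3 in both. The scavenger receptor Marco overlapped between groups, at 0.744, 0.779 and 1.28 against 1.97, 0.201 and 1.0 CPM.

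Of 24 lysosome and autophagy genes tested, 8 lay wholly below, against 6.82% of all genes, and 0 wholly above, with a median of -0.21. The 8 included Lgals3, the galectin of damaged lysosomes and activated macrophages, at 448, 240.4 and 409 against 72.1, 72.1 and 148 CPM. Gpnmb, a lysosomal membrane protein of lipid-laden macrophages, was at 236, 322 and 259 against 48.5, 50 and 107 CPM. The protease gene Ctsz was at 302, 189 and 345 against 119, 119.7 and 154 CPM. By contrast Lamp1, the general lysosome membrane protein, overlapped between groups at 849, 1083 and 885 against 873, 666 and 737 CPM, and so did Tfeb, the regulator of lysosome genes (12.1, 4.36 and 9.32 against 6.40, 13.7 and 7.06 CPM).

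Some genes of oxidative stress and some of metal handling separated the groups. Cyba and Cybb encode the membrane subunits of the phagocyte oxidase. Cyba was at 111, 81.7 and 133 against 27.8, 26 and 45.3 CPM (edgeR adjusted p = 0.0697) and Cybb at 35.2, 71.1 and 51.4 against 14.5, 10.5 and 26.9 CPM. Of 26 genes of oxidative stress, 6 lay wholly below, against 6.82% of all genes, and 0 above, with a median of -0.35. DESeq2 called 4 of the 26 lower, against 1.72% of all genes. The list of 14 metal handling genes was mixed: 4 lay wholly below, against 6.82% of all genes, and 2 above, against 8.87%. Its median was -0.17, or -0.0088 without particle replicate 2. Hamp, the gene of the iron hormone hepcidin, was at 89.9, 76.7 and 152 CPM in inflamed and 11.3, 9.0 and 41.2 CPM in particle islets, against at most 0.0718 CPM in controls. Particle replicate 3 was the highest of the 3 particle libraries in Cyba, Cybb and Hamp. The iron store gene Fth1 was at 4644, 5224 and 8459.9 against 1866, 1517 and 3832 CPM, and Slc11a1, a metal exporter of the phagosome, at 48, 80.3 and 67.2 against 30.2, 13.5 and 30.1 CPM. Slc40a1, the iron exporter ferroportin, lay wholly above, at 10.1, 13.2 and 13.6 against 14.3, 15.7 and 14.3 CPM. Hmox1, the heme-degrading enzyme controlled by NRF2, overlapped between groups, at 865, 577 and 1039.6 against 2258, 896 and 935 CPM. Particle replicate 1 alone stood above the rest.

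The cytokine response itself differed by branch and by library. NF-kB targets and chemokines had lower values in particle islets, with 10 of 29 wholly below, against 6.82% of all genes, 0 wholly above and a median log2 fold change of -0.84. Against the inflamed mean the median was -0.58, -1.70 and -0.50 in particle replicates 1, 2 and 3. In particle replicate 2 all 29 genes lay below all 3 inflamed values, against 28.6% of all genes, while the number was 18 in replicate 1, against 27.2%, and 13 in replicate 3, against 18.8%. DESeq2 called 5 of the 29 lower, against 1.72% of all genes.

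Among chemokines and secreted factors, Ccl5, which attracts T cells, was at 66.3, 36.8 and 131 against 13, 4.74 and 32.5 CPM (log2 fold change -2.22, SE 0.75). Il6, the gene of one of the cytokines given, was at 42.8, 32.4 and 73.6 against 5.71, 1.08 and 24.8 CPM. Csf3, the granulocyte growth factor, was at 10, 9.31 and 31 against 1.08, 0.281 and 4.01 CPM. Each had its lowest particle value in replicate 2 and its highest in replicate 3. Ccl2, which attracts monocytes, overlapped between groups at 144, 86.7 and 260.0 against 23.6, 7.84 and 93.5 CPM. Among signalling genes, the NF-kB subunit gene Nfkb2 was at 223, 153 and 160.3 against 106, 78.1 and 115 CPM and its partner Bcl3 at 135, 83.9 and 132 against 57, 56.6 and 65 CPM. Both were wholly lower. Traf1, an adaptor of TNF receptors, was at 6.23, 6.46 and 16.8 against 1.77, 0.884 and 4.53 CPM, and the inhibitor gene Nfkbia at 699.6, 431 and 398 against 391, 140.2 and 356 CPM. Nos2, the inducible nitric oxide synthase, overlapped at 604, 743 and 507 against 848, 205 and 353 CPM, with particle replicate 1 above all inflamed libraries and replicates 2 and 3 below them.

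The interferon genes did not share this order. Of 30 tested, 2 lay wholly above and 1 wholly below, against 8.87% and 6.82% of all genes. The median of 0.20 turned to -0.15 without particle replicate 1. The medians against the inflamed mean were 0.65, -0.31 and 0.05 in particle replicates 1, 2 and 3. In replicate 1, 24 of 30 genes lay above all inflamed values, against 30.2% of all genes. In replicate 2, 16 of 30 lay below them, against 28.6%. In replicate 3, 9 of 30 lay above, against 26.4%, and 3 below, against 18.8%. Cxcl10, a chemokine for T cells, was at 721, 1118 and 1140.4 against 5709, 1829 and 1577 CPM and overlaps Art3. Its 3 particle values were all above the inflamed ones, by the widest margin in replicate 1. Cxcl9, which binds the same receptor, had the reverse order, at 824, 762 and 1250.5 against 739, 285 and 607 CPM. Irf1, a transcription factor of the pathway, was at 866, 740.2 and 650.3 against 1795, 792 and 742 CPM, and Gbp2, a guanylate-binding protein of host defence, at 1939, 2178 and 2443 against 2577, 1045 and 2814 CPM. The groups overlapped in both.

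Most antigen presentation genes overlapped between particle and inflamed islets. Of 16 MHC class I genes 0 were separated in either direction, against 8.87% above and 6.82% below among all genes. Their median of -0.09 changed sign in 3 of 21 alternative fits. In particle replicate 1, 11 of the 16 class I genes lay above all inflamed values and 2 below, against 30.2% and 27.2% of all genes. Replicate 2 had 2 above and 7 below, against 33.5% and 28.6%. Replicate 3 had 1 above and 9 below, against 26.4% and 18.8%. The class I medians against the inflamed mean were 0.34, -0.20 and -0.31 in particle replicates 1, 2 and 3. B2m, the class I light chain, was at 4834, 4873 and 6324 against 6953, 3094 and 4635 CPM, with 43.9, 37.7 and 36.3 CPM in untreated islets. Of 8 class II genes, 2 lay wholly below (Ctss and H2-DMa), against 6.82% of all genes, and all 8 log2 fold changes were negative. In particle replicate 2 all 8 lay below all inflamed values, against 28.6% of all genes, as they did in replicate 3, against 18.8%. In replicate 1, 4 lay above, against 30.2%, and 2 below, against 27.2%. The medians against the inflamed mean were 0.15, -0.70 and -0.73 in particle replicates 1, 2 and 3. Cd74, the invariant chain, overlapped at 2398, 2298 and 2389 against 2805, 1896 and 1489 CPM. The IL-6 and STAT3 list held 6 of 26 genes wholly below, against 6.82% of all genes, and 0 above (median -0.52), among them Socs3, a feedback inhibitor, at 79.4, 58.3 and 66.4 against 54.3, 48.8 and 47.3 CPM. Of 14 further complement genes 3 lay wholly below, against 6.82% of all genes: C3, C3ar1 and C5ar1. C3, the central complement protein, was at 255, 432 and 282 against 162, 70.2 and 154 CPM.

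**Figure D3:**
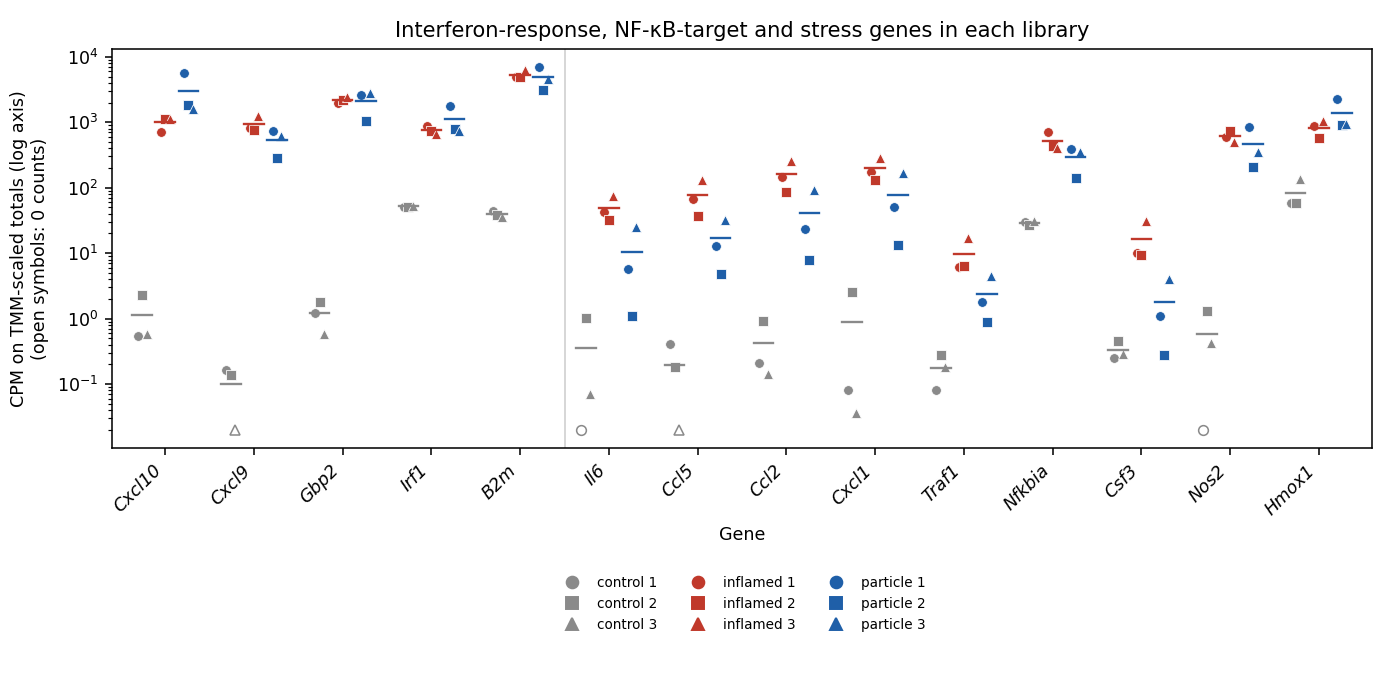
CPM of interferon-response genes (left of the line) and of NF-kB targets, Nos2 and Hmox1 (right) in each library, with group means as bars on a log axis and open symbols for 0 counts. Particle replicate 1 (blue circles) is the highest of the 9 libraries in Cxcl10, Irf1 and B2m, and particle replicate 2 (blue squares) is the lowest particle library in Il6, Ccl5, Ccl2, Cxcl1, Traf1, Nfkbia and Csf3.

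Beta cell genes had higher values in particle islets, by an amount that differed widely among the 3 libraries. Of 28 identity genes tested, 10 lay wholly above the inflamed values and 0 below, against 8.87% above among all genes, and the median log2 fold change was 1.14. Against the inflamed mean the medians were 0.80, 1.91 and 0.17 in particle replicates 1, 2 and 3, with 2.47 to 2.90 in untreated islets. The number of genes above all inflamed values was 24, 26 and 10 of 28 in replicates 1, 2 and 3, against 30.2%, 33.5% and 26.4% of all genes. The count in replicate 3 was near the share of all genes. Without particle replicate 2 the median was 0.57, and 10 genes lay wholly above and 1 below. Over all 17276 genes these numbers were 2148 and 1725. DESeq2 called 12 of the 28 higher and 0 lower, against 2.82% and 1.72% of all genes. Particle replicate 2 also held the highest particle levels of alpha, delta and acinar cell markers, given below; their part in this result was not tested.

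Mafa, the factor that drives insulin transcription in mature beta cells, was at 70.2, 51.3 and 41.6 CPM in inflamed and 74.5, 1263 and 50.7 CPM in particle islets, with 2521, 2946 and 2878 CPM in controls. Only particle replicate 2 was far above the inflamed range. The log2 fold change of 3.09 (SE 1.08) was 0.21 without it. G6pc2, the glucose-6-phosphatase of beta cells, was at 15.5, 8.25 and 9.55 against 53, 624 and 7.93 CPM, with replicate 3 below the inflamed range and replicates 1 and 2 above it. Slc2a2, the glucose transporter GLUT2, was at 9.76, 10.4 and 5.85 against 16.3, 158 and 16.3 CPM, and its log2 fold change of 2.88 was 0.92 without particle replicate 2. Pdx1, a master regulator of beta cells that overlaps the noncoding Plut, was at 13, 15.8 and 12 against 30.7, 109 and 16.5 CPM. Isl1, a factor of endocrine cells, had the narrowest particle range of these genes, 46.2, 62.1 and 31.7 CPM against 23.6, 20.4 and 23.2 CPM. Slc30a8, the zinc carrier of insulin granules, was at 41.2, 48.1 and 47.3 against 76.4, 189 and 52.4 CPM. In the last 4 genes all 3 particle values lay above the inflamed ones.

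**Figure D4:**
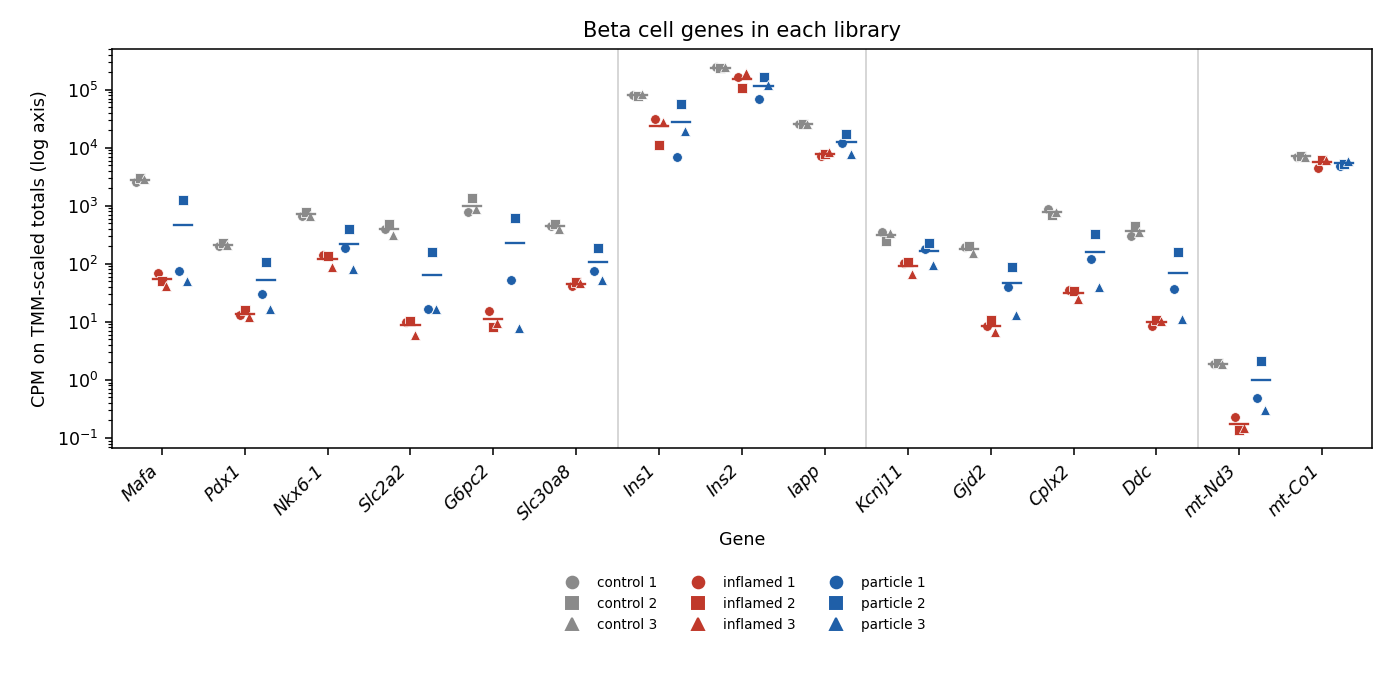
CPM of beta cell regulators and transporters, hormones, secretion genes and 2 mitochondrially encoded genes (from left to right, between lines) in each library, with group means as bars on a log axis. Particle replicate 2 (blue squares) lies highest of the particle libraries in each gene shown except mt-Co1, and particle replicate 3 (blue triangles) lies within or near the inflamed range in most.

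The hormone genes did not separate. Ins1 was at 30952, 11001 and 28133 against 6995, 56970 and 19602 CPM and Ins2 at 162050, 104650 and 192280 against 68085, 162870 and 121610 CPM. Particle replicate 1 was the lowest of the 6 libraries in both, while it was above the inflamed range in 24 of the 28 identity genes. Iapp, which encodes the amyloid peptide co-secreted with insulin, was at 7259, 7647 and 8342 against 11957, 17273 and 7701 CPM. Genes of hormone granules were likewise mostly unseparated over the 3 libraries, with 0 of 17 wholly above and 1 below, against 8.87% and 6.82% of all genes. Single libraries differed in direction. Particle replicate 1 had 6 of 17 above all inflamed values and 5 below, against 30.2% and 27.2% of all genes. In replicate 2 the numbers were 12 and 2, against 33.5% and 28.6%, and in replicate 3 they were 0 and 9, against 26.4% and 18.8%. The list's median log2 fold change of 0.11 was -0.17 without particle replicate 2.

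Genes that couple glucose to secretion ranked the libraries like the identity genes, with 5 of 28 wholly above, against 8.87% of all genes, 0 below and a median of 0.74. Cplx2, a regulator of vesicle fusion, was at 34.9, 34 and 24.7 against 119, 322 and 40.5 CPM (log2 fold change 2.36, SE 0.57; 1.36 without particle replicate 2). Gjd2, the connexin that couples beta cells electrically, was at 8.46, 10.6 and 6.76 against 40.2, 87.3 and 13.3 CPM. Ddc, which makes dopamine and serotonin, was at 8.37, 10.5 and 10.3 against 37, 158 and 11 CPM. The order replicate 2, 1, 3 held in all of them. Kcnj11, a subunit of the potassium channel that closes upon glucose, overlapped at 104, 106 and 65.5 against 178, 231 and 94.5 CPM.

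The 10 higher genes with the smallest p were more even across libraries, as a rule based on p favours. Nrep, named for its link to neuronal regeneration, was at 4.93, 4.72 and 4.55 CPM in inflamed and 16.7, 21.5 and 13.5 CPM in particle islets, with 32.7, 29.4 and 27.1 CPM in controls. Its log2 fold change was 1.86 (SE 0.22; edgeR adjusted p = 0.0638, DESeq2 adjusted p = 2.49e-09) and 1.68 without particle replicate 2. P2ry1, a receptor for extracellular ADP, was at 4.18, 3.48 and 4.44 against 12.1, 14.8 and 9.76 CPM, and Pde5a, a cGMP phosphodiesterase, at 15.7, 14.3 and 12.9 against 31.9, 37.7 and 24.8 CPM. Nol4, Dcun1d2, Slco1a6, Ift81, Nipsnap1 and B3galt5 had log2 fold changes from 1.16 (Ift81) to 1.89 (B3galt5), and in these 6 genes all untreated values lay above all particle values. Naaa, a lysosomal hydrolase that breaks down the lipid mediator palmitoylethanolamide (ENSMUSG00000029413, chromosome 5 from 92405518 to 92426029), was the exception. It was at 26.8, 29.9 and 21.8 CPM in inflamed and 26.4, 14 and 19 CPM in control islets and at 114, 65.6 and 60.4 CPM with particles, a log2 fold change of 1.61 (SE 0.30; edgeR adjusted p = 0.112).

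Mitochondrially encoded genes ranked the particle libraries in the same order as the beta cell genes. Their medians against the inflamed mean were 0.54, 1.86 and 0.12 in replicates 1, 2 and 3. Of the 12 tested, 2 lay wholly above, against 8.87% of all genes, and both had few counts. These were mt-Nd3, with 5, 3 and 8 counts in inflamed and 10, 53 and 7 in particle islets, and mt-Nd4l, with 0, 1 and 4 against 6, 35 and 3. Without particle replicate 2 the list's median log2 fold change was 0.20 in place of 1.0. mt-Nd1, a subunit of respiratory complex I, was at 315, 518 and 814 against 1092, 2152 and 580.5 CPM. mt-Co1, a subunit of complex IV, had no such order, at 4493, 6138 and 6109 against 4826, 5192 and 5994 CPM. As a share of counts, all genes of the mitochondrial chromosome took 0.751%, 1.14% and 1.08% in inflamed and 1.13%, 1.54% and 1.17% with particles (two-sided exact permutation test, p = 0.2). Of 26 nuclear genes of the same complexes, 0 lay wholly above and 1 below, against 8.87% and 6.82% of all genes.

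Genes that the beta cell normally keeps silent had lower values, with 5 of 20 wholly below, against 6.82% of all genes, 0 above and a median of -0.98. Ldha, the lactate-forming enzyme, was at 125, 92.8 and 236 against 41.2, 51 and 56.1 CPM. Zyx, a focal adhesion protein, was at 186, 127 and 203 against 47.6, 63.6 and 76.1 CPM (edgeR adjusted p = 0.0707; it overlaps Epha1). Vim, an intermediate filament of mesenchymal cells and macrophages, was at 141, 136 and 221 against 49.6, 35.9 and 81.2 CPM. Several of these genes are also expressed by macrophages, whose markers were lower in the same libraries; their part in this result was not tested.

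Genes of glutamine handling and of the amino acid stress response were examined because the particles are described as nutrient carriers. Of 24 glutamine genes, 3 lay wholly above (Gpt2, Gfpt1 and Ppat) and 2 below (Got2 and Slc38a1), near the shares of all genes. Glul, which makes glutamine, was at 308, 251 and 223 against 402, 302 and 237 CPM, and the importer Slc1a5 at 9.02, 6.60 and 11.7 against 5.46, 9.24 and 10.5 CPM. Neither separated the groups. In the integrated stress response 3 of 25 genes lay wholly above and 0 below, against 8.87% and 6.82% of all genes. Chac1, which degrades glutathione, was at 42.9, 34.7 and 41.1 against 80.1, 125 and 57.1 CPM, and Vldlr, a lipoprotein receptor, at 26.2, 31.1 and 24.2 against 44.7, 42.4 and 39.3 CPM. Atf4, the factor at the head of the response, overlapped at 825, 644 and 822 against 773, 790.0 and 747 CPM.

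Few cell stress and death genes separated the groups, beside 8.87% wholly above and 6.82% wholly below among all genes. Of 22 endoplasmic reticulum stress genes 1 lay wholly above and 1 below, and Hspa5, the chaperone BiP, was at 1219.8, 1346 and 1135 against 1249.7, 1135 and 1254 CPM. Of 28 apoptosis genes 3 lay wholly below and 0 above. One was Bcl2l11, the pro-apoptotic BIM, at 52.2, 47.3 and 41.9 against 23.6, 16.6 and 35.7 CPM, and another was Mcl1, which opposes it, at 156, 149 and 164 against 112, 90.1 and 137 CPM. Cdkn1a, the cell cycle inhibitor p21, overlapped at 604, 449 and 616 against 522, 505 and 626 CPM. In particle replicate 2, 19 of the 28 apoptosis genes lay below all inflamed values and 1 above, against 28.6% and 33.5% of all genes. Replicate 1 had 7 below and 5 above, against 27.2% and 30.2%. Replicate 3 had 6 below and 5 above, against 18.8% and 26.4%. The apoptosis medians against the inflamed mean were -0.0042, -0.56 and 0.019 in particle replicates 1, 2 and 3. Of 26 matrix genes 5 lay wholly below, against 6.82% of all genes, and 0 above, with Tgfb1, a growth factor of fibrosis, at 44.2, 30.3 and 54.8 against 9.55, 16 and 15.8 CPM and the protease Mmp14 at 70.8, 50.2 and 78.4 against 20.6, 16.3 and 23.2 CPM. Inflamed replicate 2 was the lowest inflamed library in both.

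Metabolic and growth lists held few separated genes, to be set beside 8.87% wholly above and 6.82% wholly below among all genes. Of 28 genes of cholesterol and fatty acid synthesis, 4 lay wholly above, among them Idi1, Stard4 and Dhcr7, and 1 below (Srebf2). Dhcr7, the enzyme of the last step of cholesterol synthesis, was at 16, 17.6 and 17.4 against 19.4, 27.1 and 21.1 CPM. Of 27 glycolysis and hypoxia genes 2 lay wholly above (Ankrd37 and Pdk1) and 3 below, among them Hk2, a hexokinase normally silent in beta cells, at 10.5, 13.2 and 19.6 against 3.40, 3.90 and 7.58 CPM. Of 22 cell cycle genes only Mcm6 was separated, above the inflamed values, and of 25 ribosomal protein genes 0 were. Of 19 immediate early genes 2 lay below: Junb, a stress-responsive subunit of AP-1, was at 1033, 409 and 508 against 142, 164 and 331 CPM, and Nr4a1 at 13.1, 6.28 and 9.96 against 3.59, 4.10 and 3.18 CPM. Of 15 genes of the inflammasome and particle sensing 2 lay below, Tlr4, the endotoxin receptor, at 1.86, 1.19 and 3.60 against 0.640, 0.482 and 0.959 CPM; the other, Aim2, was at most at 1.33 CPM. 

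**Figure D5:**
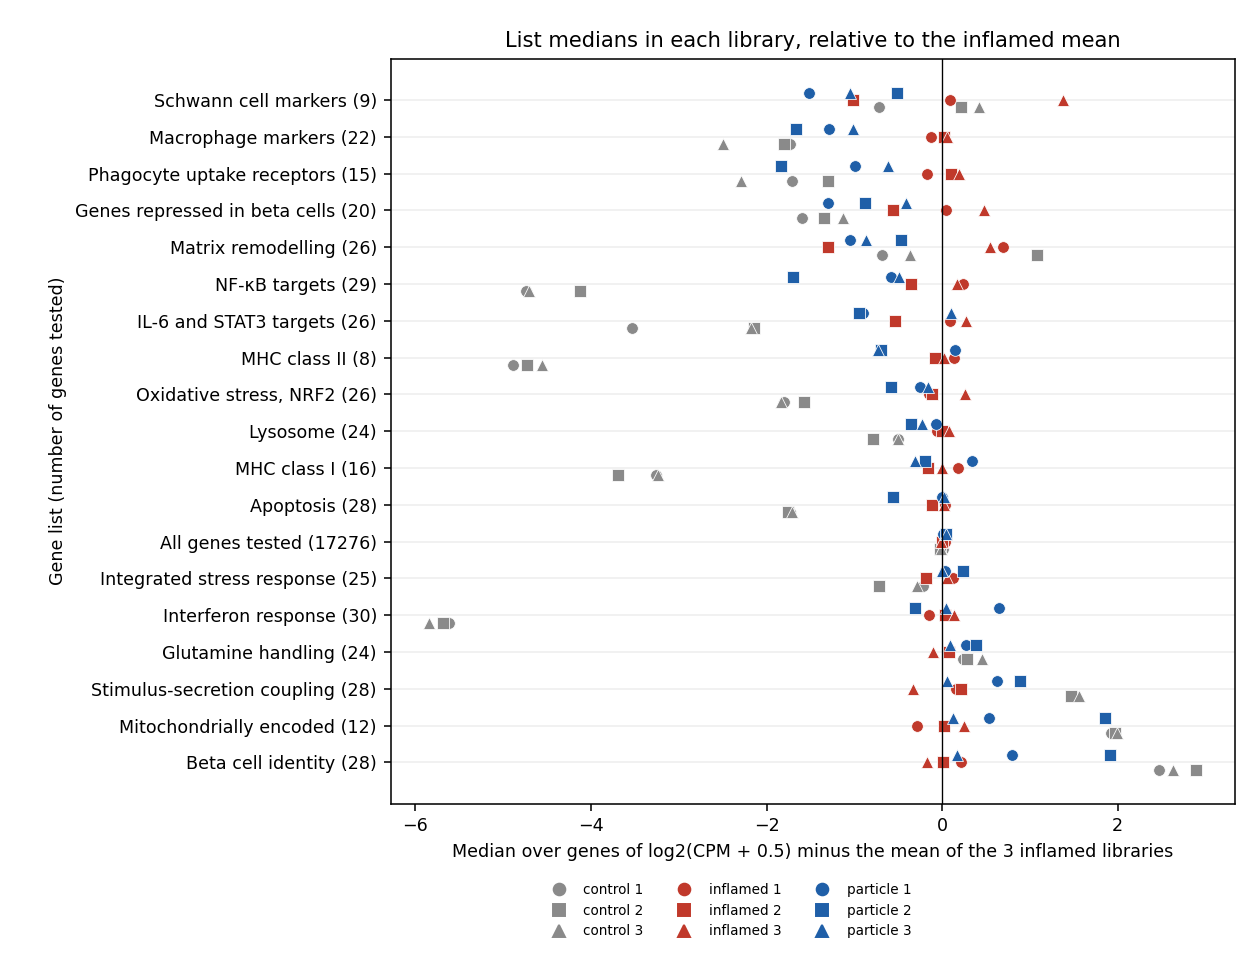
Median over the genes of each list of log2(CPM + 0.5) minus the mean of the 3 inflamed libraries, one symbol per library and one row per list. The 3 particle libraries lie close together at -1.29, -1.66 and -1.02 for macrophage markers but spread from 0.17 to 1.91 for beta cell identity and from -0.31 to 0.65 for interferon genes.

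Markers of other islet and pancreas cell types differed between single libraries, and several stood high in particle replicate 2, the library with the highest beta cell values. Gcg, the glucagon gene of alpha cells, was at 253, 61.3 and 427 against 395, 7543 and 65.1 CPM, and Sst, the somatostatin gene of delta cells, at 258, 106 and 313 against 41.9, 1552 and 83.2 CPM. Replicate 2 alone was high in both. The alpha list's median log2 fold change was 0.58 and became -0.10 without that library, and the list of delta, PP and epsilon cells went from 0.75 to -1.14. The digestive enzyme gene Ctrb1 of acinar cells was at 21.1, 27.5 and 2232 against 4.38, 2008 and 165 CPM, high in inflamed replicate 3 and particle replicate 2. Of 21 acinar markers, 17 lay above all inflamed values in particle replicate 2, against 33.5% of all genes. The summed acinar level was 68.2, 76.8 and 3259 CPM in inflamed and 81.7, 4744 and 342 CPM in particle islets, and that of the 9 alpha markers 383, 184 and 579.9 and 534, 8069 and 178 CPM. For 16 endothelial markers the sums were 35.2, 27.6 and 58.1 and 15.5, 51.2 and 19.1 CPM. Much of this was Eng, at 26.7, 14.8 and 44.2 against 6.20, 10 and 5.88 CPM. By log2 fold change 14 of the 16 were positive and 2 negative, with a median of 0.83, or -0.50 without particle replicate 2. For 16 stellate cell and pericyte markers the sums were 219, 161 and 286 and 75.7, 139.7 and 111 CPM. Much of this was Vim, and 6 of the 16 had a positive and 10 a negative log2 fold change. Sox10, the lineage factor of Schwann cells, was high in inflamed replicates 1 and 3, at 15.2, 2.15 and 34.1 against 0.541, 1.29 and 2.09 CPM. The 9 Schwann and neural markers were less uniform, as 3 had a positive and 6 a negative log2 fold change. Their median against the inflamed mean was 0.08, -1.02 and 1.38 in the inflamed libraries and -0.72, 0.22 and 0.42 in controls. Of 9 Schwann and neural markers tested, 2 lay wholly below, as did 2 of 16 stellate and 1 of 16 endothelial markers (Eng), against 6.82% of all genes. Of the stellate markers 1 lay wholly above, against 8.87% of all genes, and 0 of 12 duct cell markers were separated. The stellate marker was Rgs5, with only 23, 13 and 0 counts in inflamed and 23, 199 and 32 in particle islets. Lymphocyte and neutrophil markers were mostly too low to test (4 of 14 tested). The part of these cell types in the beta cell and matrix results was not tested.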

How the data were processed

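RNA-seq of mouse islets was analysed from the gene count table, with 3 libraries each of particle, inflamed and control islets. The deposited counts are whole reads per gene, made by the authors with HTSeq on build GRCm39, per the submitters' processing notes, which also name DESeq2; versions, aligner and strand setting are not given in the sources used here. Reads of overlapping, antisense or near-identical genes may therefore be shared. The deposited FPKM values, which the authors gave for the same libraries, entered only alternative fits.

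Genes were kept by filterByExpr in edgeR 4.0.16 (R 4.3.3) with a smallest count of 10, leaving 17276 of 56748, and libraries were scaled by TMM. All 9 libraries entered 1 quasi-likelihood fit, and the contrast of particle against inflamed was called at a Benjamini-Hochberg adjusted p under 0.05. DESeq2 1.42.0, limma 3.58.1 (voom, and log2(FPKM + 1) or log2(FPKM + 0.1)), other scalings and filters, fewer libraries and a block for the replicate number were alternatives. Shares of counts were compared by exact two-sided permutation tests. On simulated counts over 16716 genes, the particle contrast recovered 10% of 100 genes planted at 2-fold and 82% of 100 planted at 4-fold. None was in the wrong direction, and 2 unchanged genes were called. These shares describe the simulated counts only and are no estimate of power in the real libraries. There the same contrast called 0 genes, although Sh3pxd2b was 4.43-fold lower with particles (edgeR adjusted p = 0.0638). Total counts were 17832949 to 55865759 per library. Replicates of a group differed by a chi-square of 39.4 to 186 per degree of freedom, so they differed by more than counting error. This was 94.4 to 186 among particle libraries, 62.5 to 145 among inflamed libraries and 39.4 to 65.2 among controls, so the particle and inflamed ranges overlapped.

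The samples, the 36 gene lists (719 symbols, 6 not found and 36 found but below the filter) and the rules were chosen with earlier results of these data known. Named genes were the 10 per direction with the smallest p and the 10 with the largest fold change, among protein-coding genes of at least 5 CPM with separate groups; the 2 of each list with the smallest p; and 27 fixed genes. Other list members named in the text, and the counts per single particle library, were chosen after their values were seen. Promoter windows came from the RefSeq table of build GRCm38.p6, which differs from that of the counts, and were matched by symbol only. A few list members are counted in their lists and not reported here by name.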

Additional observations from a re-analysis of the deposited data

How the results depend on the processing

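The number of genes called between particle and inflamed islets depended on the tool, the filter and single libraries. With edgeR it was 0 higher and 0 lower in the reported fit, and again with the replicate block (1414 and 852 at an unadjusted p under 0.05) and in the fit of the 6 particle and inflamed libraries only. Library totals without TMM factors gave 1 higher gene, and no filter on low counts gave 120 higher and 101 lower. DESeq2 called 487 and 296, limma-voom 1 and 7, limma on log2(FPKM + 1) 10 lower, and limma on log2(FPKM + 0.1) 5 and 6. Leaving out 1 library at a time gave 0 to 636 higher genes and 0 to 306 lower ones; the highest numbers came without particle replicate 3, and without control replicate 2 there was 1 lower gene. For inflamed against control islets, leaving out 1 library at a time gave 2278 (without control replicate 3) to 3786 higher and 2401 to 3588 lower genes, and the replicate block 3152 and 2964. Over the other settings it was 3122 to 4240 higher and 2605 to 3987 lower, with 4240 and 2605 both from library totals without TMM factors. The cause of these differences was not tested.

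Of 123 named genes, 113 kept their direction in all alternatives that tested them (20 or 21 per gene), including all 20 named by the smallest p. Those 20 were chosen by small p and separate groups, and the alternatives refit the same libraries. Their kept direction is therefore no independent support. The remaining 10 named genes turned as follows. Leaving out 1 library at a time, the log2 fold change ran from -0.45 to 6.76 for Slc38a5 (5.71 as reported), -0.10 to 4.09 for Gcg (3.43), -1.29 to 4.18 for Flt1 (2.90), -1.61 to 4.53 for Pyy (3.94), -1.43 to 6.80 for Cel (4.93), -1.86 to 1.87 for Sst (1.31) and -0.82 to 0.72 for Ins1 (0.25), with the lowest value without particle replicate 2 in each. It ran from -0.46 to 0.12 for B2m (-0.13), -0.31 to 0.12 for Slc1a5 (-0.12) and -0.66 to 0.051 for Mt1 (-0.16). The sign turned without particle replicate 2 for B2m (0.12) and Mt1, without inflamed replicate 3 for B2m (0.02) and Slc1a5 (0.11), without particle replicate 1 for Slc1a5, without particle replicate 3 for Mt1 (0.03) and without inflamed replicate 2 for Ins1 (-0.08). Sst was at -0.15 with the replicate block, -0.22 with limma-voom and -0.23 with both FPKM fits, and Ins1 was at -0.10 with limma-voom and -0.11 with both FPKM fits. Of the 36 list medians, 23 kept their sign in all alternatives, and 9 of the other 13 turned without particle replicate 2.

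The labels do not say whether the replicate numbers pair the samples. Deviations from the group means in particle and inflamed libraries of the same number correlated at 0.064, -0.224 and 0.0562. Of 3 particle libraries, 1 correlated best with its own number. With 3 libraries a group, these correlations cannot exclude a pairing. The median log2 fold change of all genes was 0.0369, and 0.129 without TMM factors. With 3 libraries a group, small changes and genes of few counts could not be resolved.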
